A study of Mus musculus with 8 samples.

Results

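Lower hair follicle (HF) bulge cells were 238 of the 904 epidermal wells in 6 plates of single cells from mouse back skin. The bulge is the niche below the sebaceous gland that holds the slow-cycling stem cells of the HF. Its cells rest through telogen, the pause of the hair cycle, and WNT inhibitors and BMP signals are known to hold them there. They carry CD34 and KRT15, sit on the basement membrane through hemidesmosomes, and secrete matrix around the resting follicle.

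A well was taken as a bulge cell when *Postn* (periostin, a matrix protein), *Cd34* (a sialomucin of the bulge surface), *Angptl7* (a secreted angiopoietin-like protein) and *Lhx2* (a LIM homeobox factor of HF stem cells) together made up at least 0.15% of its transcripts, with at least 3 transcripts. Wells rich in the suprabasal keratins *Krt1* and *Krt10*, in the upper follicle genes *Cst6*, *Defb6* and *Krt79*, or in T cell or MHC class II transcripts were kept out. The remaining 666 epidermal wells were the comparison, and they split into 406 basal, 153 *Krt1*/*Krt10* and 107 upper follicle wells. Members were thus chosen by the measured levels of 17 genes, which are described here and carry no test. Every other gene was measured apart from the rule, in the same wells.

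The study sequenced single cells by SORT-seq, which counts molecular barcodes per gene and well, from 6 adult C57BL/6 mice of 7 to 9 weeks, with 1 mouse per plate of 384 wells. Of the 6 plates, 4 were from *Troy*-EGFP-IRES-CreERT2 mice, in which the cassette replaces the coding region of *Troy* (*Tnfrsf19*, a TNF receptor family member). The other two were from mice that were homozygous for both *Troy*-EGFP-IRES-CreERT2 and the Rosa26-LSL-tdTomato reporter, received 5 mg tamoxifen once and were traced for 7 days, so that cells with a *Troy* history and their progeny carried tdTomato. All cells were sorted by ITGA6 (integrin alpha 6) and by EGFP or tdTomato, with both reporter-positive and reporter-negative cells on the plates; the gate of a well is not used here. Bulk CEL-Seq libraries of viable, ITGA6bright EGFP+ and ITGA6bright EGFP– cells came from 2 further *Troy*-EGFP-IRES-CreERT2 mice.

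Bulge wells numbered 7, 42, 39 and 63 in *Troy*-EGFP replicates 1 to 4, and 49 and 38 in traced replicates 1 and 2. They were 25.9, 36.8, 23.9 and 31.8% of the epidermal wells of the *Troy*-EGFP plates and 22.5 and 20.7% of those of the traced plates, with exact 95% binomial intervals that ran from 11.1 to 46.4% over the plates and cover counting error only. The share was lower in the traced plates, 21.6% ± 1.29 (SD, n = 2) against 29.6% ± 5.86 (n = 4), but the difference of -8.06 points did not pass an exact two-sided permutation test (p = 0.133 over 15 arrangements, which cannot reach the threshold). With wells of at least 2000 transcripts the difference was -4.00 points (exact permutation p = 0.667). These shares also depend on how many wells each sorting gate filled.

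A bulge well held fewer transcripts than the other epidermal wells of its plate. Its median total ran from 1928 to 2896 transcripts over plates, against 2427 to 4274, and it was lower in 6 of 6 plates, by a log2 ratio of -0.478 ± 0.218 (SD, 6 plates). The total is also the denominator of the rule, so a shallow well reaches the limit with fewer transcripts, and this ratio is given as a description with no test. Cut to 1000 transcripts each, bulge wells held a median of 566 to 665 genes by plate and the others 555 to 621. *Kcnq1ot1*, a noncoding RNA that the study used to leave out dying cells, took 0.102 to 4.16% of bulge transcripts and 0.0872 to 2.83% of the others', and was higher in the bulge in 6 of 6 plates; its part in the results was not tested.

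The members met the rule by different margins. The 4 genes together held between 0.151 and 3.46% of a well's transcripts, with a median of 0.72%, or 3 to 113 transcripts. All 4 genes were found in 101 wells, 3 of them in 82, 2 in 39 and a single one in 16. The wells just inside the limit stood at 0.151, 0.155 and 0.156%, and those just outside at 0.137, 0.133 and 0.13%. *Lhx2* was seen in 222 of the 238 wells, *Postn* in 218, *Cd34* in 183 and *Angptl7* in 121.

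Levels are given below as transcripts per 1000000 of the sum of a class in a plate, after TMM scaling, in the order *Troy*-EGFP replicates 2, 3 and 4 and then traced replicates 1 and 2; the 7 bulge wells of *Troy*-EGFP replicate 1 were too few for a sum. *Postn* (chromosome 3, 54359267 to 54391041, mm10) stood at 4351, 4073, 5237, 2270.5 and 2739 in bulge wells and between 38.3 and 149.8 in the others. *Lhx2* (chromosome 2, 38339271 to 38369737) stood at 1947, 2163, 2399, 1481 and 1777 in the bulge. *Cd34* (chromosome 1, 194938821 to 194961292) ranged from 964 to 2170.4 and *Angptl7* (chromosome 4, 148495181 to 148500462) from 467 to 1367. These are the values that chose the wells.

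The label was checked on the remaining pair of bulge markers, *Sfrp1* and *Krt24*, which the rule did not use. *Krt24* (chromosome 11, 99279959 to 99285262), a keratin of the bulge, stood at 77.9, 388, 340.1, 362 and 562 in bulge wells and at 4.16, 1.95, 8.39, 0 and 0 in the other epidermal wells. *Sfrp1* (chromosome 8, 23411383 to 23449632), a secreted WNT inhibitor, stood at 827, 902, 649, 1033 and 1616 against 99.9, 46.8, 31.9, 59.9 and 62.9. For both genes every bulge sum lay above every other sum. The log2 difference within plates was 6.97 ± 0.42 (SE, 5 plates) for *Krt24* and 4.13 ± 0.19 for *Sfrp1* (edgeR quasi-likelihood test, Benjamini-Hochberg adjusted p = 8.27e-14 and 5.18e-16). The other wells held 7 transcripts of *Krt24* in all, so that it entered the test through the bulge sums and its p is no support for the label, and its fitted difference ran from 5.74 to 10.5 over the alternatives.

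**Figure D1:**
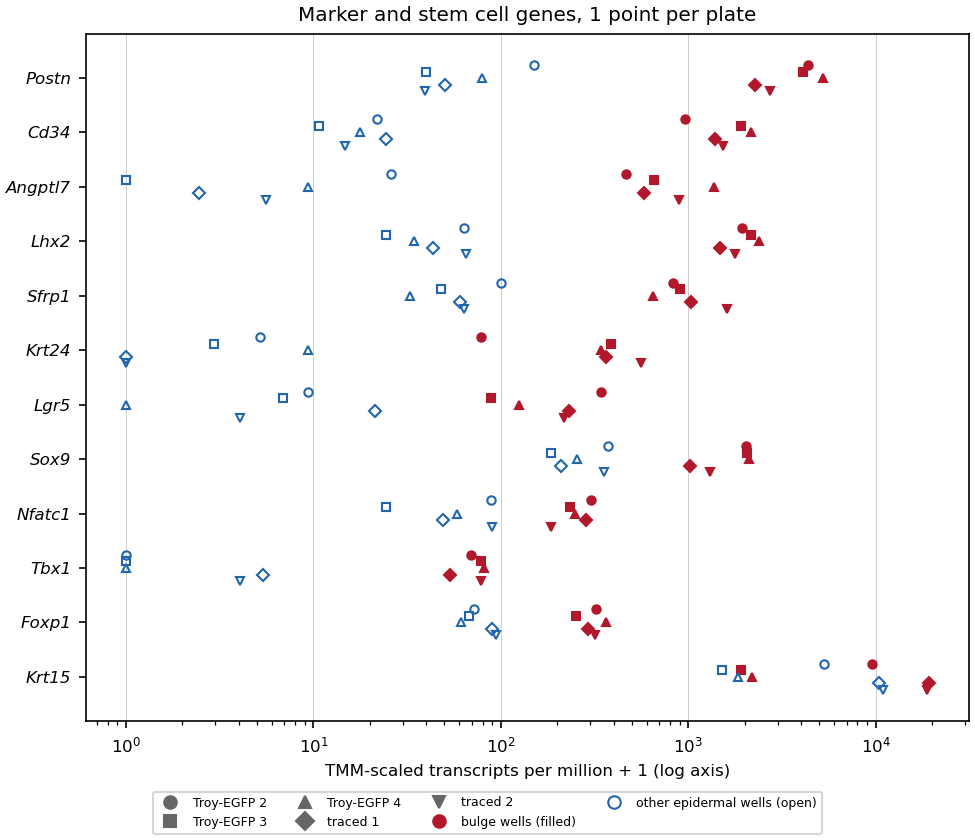
Levels of 12 bulge genes in transcripts per 1000000 plus 1 on a log axis, with 1 point per plate for bulge wells (filled) and for the other epidermal wells (open). The filled points of *Krt24* and *Sfrp1*, which the rule did not use, all lie above the open ones, while the points of *Krt15* overlap between plates.

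Depth and background were checked by cutting every well to 1000 transcripts. *Sfrp1* was then seen in 46.6% of bulge wells, 6.91% of the other epidermal wells and 1.9% of the 105 immune wells, which should lack it. *Krt24* was seen in 18.1% of bulge wells and 0.15% of the others. Before this step the shares were 60.9, 15.9 and 2.86% for *Sfrp1* and 31.5 and 1.05% for *Krt24*, at median depths of 2503 transcripts in bulge, 3488 in other and 2103 in immune wells. The immune wells stand here for the free RNA that any well can take up.

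Markers of other skin cells ranged from absent to frequent in the bulge wells. Unlike the levels above, those in this paragraph had no TMM scaling and include the few bulge wells of *Troy*-EGFP replicate 1. The 6 melanocyte genes had no transcript. The 7 T cell genes stood at 0 to 60.4 transcripts per 1000000 by plate against 16.1 to 104 in the other epidermal wells. Of these genes 4 are capped by the rule, and *Trdc* and *Trbc2*, with no transcript in any well, say nothing about the bulge. The remaining gene, *Ptprc*, was seen in 2.94% of bulge, 4.95% of other epidermal and 86.7% of immune wells. The 7 fibroblast genes together stood at 22 to 150 in bulge wells against 0 to 45 in the others. In bulge wells only *Col1a1* and *Col1a2* were seen, and *Col3a1*, *Dcn* and *Pdgfra*, which other wells held, were at 0. The endothelial list held 1 transcript in bulge wells and 6 in the others, with *Pecam1* at 0 in the bulge. The 6 Langerhans genes, 3 of them capped by the rule, were all seen, in 109 of the 238 bulge wells, at 0 to 824 against 48.3 to 606. The 5 sebocyte genes were seen in 90 bulge wells, at 67.7 to 429 against 288 to 468. The part of these cells in the results was not tested. Doublets were not called.

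The plates carried different gene annotations. The tables of *Troy*-EGFP replicates 3 and 4 use older gene names, and some genes were far lower there in both bulge and other wells. *Krt15* was 6.65-fold, *Id3* 13.5-fold and *Itga6* 2.63-fold higher in the plates with newer names. Other genes were higher in the plates with older names. *Kcnq1ot1*, *H2-Ab1* and *H2-Aa*, genes of the rule, had newer-to-older ratios of 0.178, 0.153 and 0.165. The part of this in the selection was not tested. Both bulk tables use older names as well. Annotation and plate cannot be told apart for these genes, and bulge wells were compared with other epidermal wells within plates.

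The first question was what sets bulge cells apart from the rest of the epidermis. Bulge wells had higher levels of the tested WNT and BMP pathway regulators, and of most tested matrix genes and HF transcription factors. Most tested genes of the committed epidermis were lower, which is not independent of the rule. The rule kept *Krt1*/*Krt10* wells out of the bulge, and against basal wells alone *Sbsn* and *Krtdap* were higher in the bulge. Of 3484 genes tested in 5 plates, 862 passed the threshold, 24.7% of those tested, with 462 higher (13.3%) and 400 lower (11.5%) in the bulge. The median log2 difference of all genes was -0.02. A gene seen almost only in bulge wells enters the test through the bulge sums, so the counts below cover the genes tested and not every gene of a list.

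The largest rise after *Krt24* was *Col8a2* (chromosome 4, 126286794 to 126314330), which encodes a short-chain collagen. It stood at 292, 310.3, 383, 197 and 200.03 transcripts per 1000000 in bulge wells and between 0 and 5.03 in the others, a log2 difference of 6.71 ± 0.39 (adjusted p = 2.66e-14). *Ctgf* (chromosome 10, 24595442 to 24598683), a secreted matricellular protein, stood at 642, 601, 965, 1231 and 1608 against 6.71 to 44.5, 5.67 ± 0.23 apart (adjusted p = 4.12e-17). Both genes separated the groups without overlap. As for *Krt24*, both entered the test through the bulge sums, so their p-values are no support beyond these levels.

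The other large rises covered secreted proteins, a signal regulator and enzymes. *Dkk3*, a secreted protein of the Dickkopf family, rose by 5.18 ± 0.30 on the log2 scale, from 16.3 ± 21.4 in other wells to 451 ± 152 in bulge wells (SD, n = 5). *Shisa2* (chromosome 14, 59625281 to 59631660), which is known to retain WNT and FGF receptors in the cell, stood at 399, 621, 420.5, 362 and 215 against 0 to 26.3. *Tgm5*, a transglutaminase, stood at 438, 378, 352, 592 and 700.1 against 0 to 33.6. *Pdzrn4* rose by 6.06, *Trabd2b*, a metalloprotease that cleaves WNT proteins, by 5.78, *Adcy1*, an adenylyl cyclase, by 5.46, *Adamtsl4* by 5.12, *Tbx1*, a T-box factor, by 5.03 and *Mn1*, a transcriptional coregulator, by 4.95, with adjusted p between 4.80e-14 and 1.46e-07. In all 12 genes every bulge sum lay above every sum of the other wells; over all genes tested, 11.2% were free of overlap in either direction. The other wells held 4 to 58 transcripts of each of the 12. With so few, these genes entered the test through the bulge sums, and their p-values are no support beyond the levels. Over the alternatives the fitted differences ran from 3.81 for *Tbx1* to 10.5 for *Krt24*.

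The largest falls included a cornified envelope gene and a channel regulator. *Sprr1a*, a cornified envelope precursor, stood at 48.7, 0, 12.4, 26.3 and 30.8 in bulge wells and at 911, 127, 268, 1189 and 856 in the others, -4.84 ± 0.27 on the log2 scale (adjusted p = 1.30e-14). *Clca2*, a calcium-activated chloride channel regulator, stood at 29.2, 145, 80.4, 6.58 and 0 against 304, 3143, 2245, 210.3 and 179, -4.57 ± 0.24 (adjusted p = 4.01e-15). *Ly6g6c*, a Ly6 family gene, fell by 4.31 on the log2 scale, from 681 ± 283 to 32.2 ± 33.5. Each of these was lower in the bulge in 5 of 5 plates. By class, *Sprr1a* had medians of 25.9 in bulge, 19.6 in basal and 4521 in upper follicle wells. *Ly6g6c* had medians of 19 in bulge and 28.4 in basal wells against 1270 in *Krt1*/*Krt10* and 2201 in upper follicle wells. Of the 12 largest falls 7 passed against basal wells alone, while *Sprr1a*, *Ly6g6c*, *Skint9*, *Gm94* and *Mt4* did not. The rule kept the *Krt1*/*Krt10* and upper follicle wells out of the bulge, so falls against those classes are not independent of it.

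The rest of the falls included *Il1r2*, the decoy receptor of interleukin 1 (-4.42), *Skint9* (-4.67), *Ndufa4l2* (-4.94) and *Oas1f* (-4.23). Another 5 genes had almost no transcript in the bulge sums, so no fold is given for them: *Mt4* (a metallothionein of stratified epithelia) and *Lipm* (an epidermal lipase) had 1 transcript each, *Il33* (an alarmin) had 2, and *Gm94* and *Rarres1* had 3. In the other epidermal wells the same 5 genes had 413, 189, 242, 392 and 215 transcripts.

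**Figure D2:**
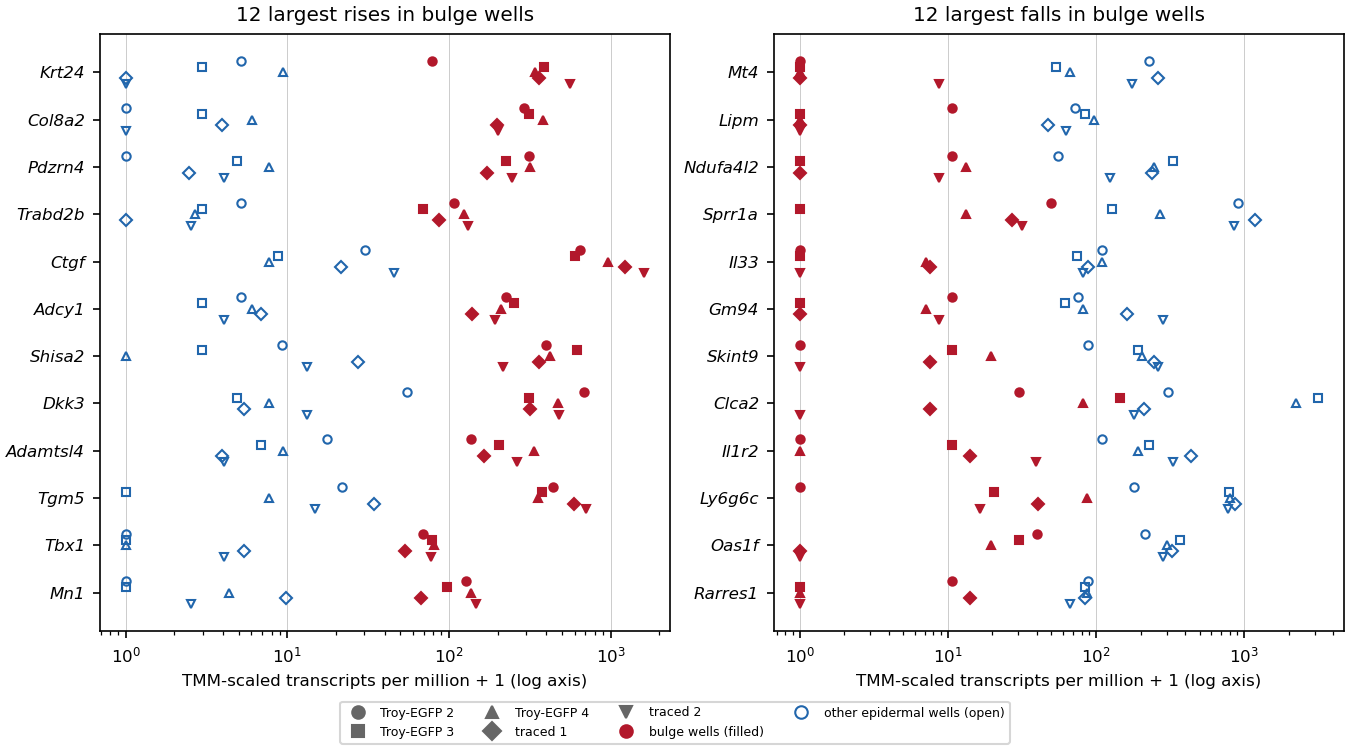
The 12 largest rises and the 12 largest falls in bulge wells, in transcripts per 1000000 plus 1 on a log axis, with 1 point per plate for bulge (filled) and other epidermal wells (open). In all 24 genes the filled and open points occupy separate ranges; *Col8a2* lies at 197 to 383 in bulge wells against 0 to 5.03.

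The tested genes of bulge identity were higher in the bulge. Of 13 listed genes, 11 were tested and 11 rose (13.3% of all genes rose), with a median log2 difference of 2.09. *Krt24*, *Tbx1* and *Lgr5* entered the test through the bulge sums, so their p-values and their place in this count are no support. *Sox9*, a factor of HF stem cells, stood at 2034, 2066, 2121, 1027 and 1300.2 against 374, 183, 253, 209 and 356, 2.63 ± 0.17 apart (adjusted p = 2.30e-13). *Lgr5*, the R-spondin receptor of cycling follicle stem cells, stood at 341, 87.3, 124, 230.3 and 215 against 0 to 20.4, 4.63 ± 0.40 apart (adjusted p = 1.42e-10). Neither gene overlapped between the groups. *Tcf7l1*, a WNT effector, and *Runx1* were not tested.

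Transcription factors made up most of the group. *Nfatc1*, which restrains the bulge cell cycle, stood at 302, 233, 247, 283 and 185 against 23.4 to 89 and differed by 2.09. *Foxp1* (2.02) and *Nfib* (1.71), a nuclear factor of HF stem cells, differed by similar amounts. *Foxc1* (1.21), a keeper of HF quiescence, and *Vdr* (1.10), the vitamin D receptor, differed less. *Cd200*, an immune-inhibitory surface protein, was 2.38 higher in the bulge, at 346 to 438 in the *Troy*-EGFP plates and 118 and 162 in the traced ones.

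*Krt15*, the classical bulge keratin (chromosome 11, 100131759 to 100135949), differed least. It stood at 9549, 1901, 2195, 19171 and 18895 in bulge wells and at 5292, 1506, 1837, 10429.6 and 10908 in the others. Within each plate it was higher in the bulge, by 0.64 ± 0.08 on the log2 scale (adjusted p = 5.21e-07), whereas between plates it varied by more than between classes.

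**Figure D3:**
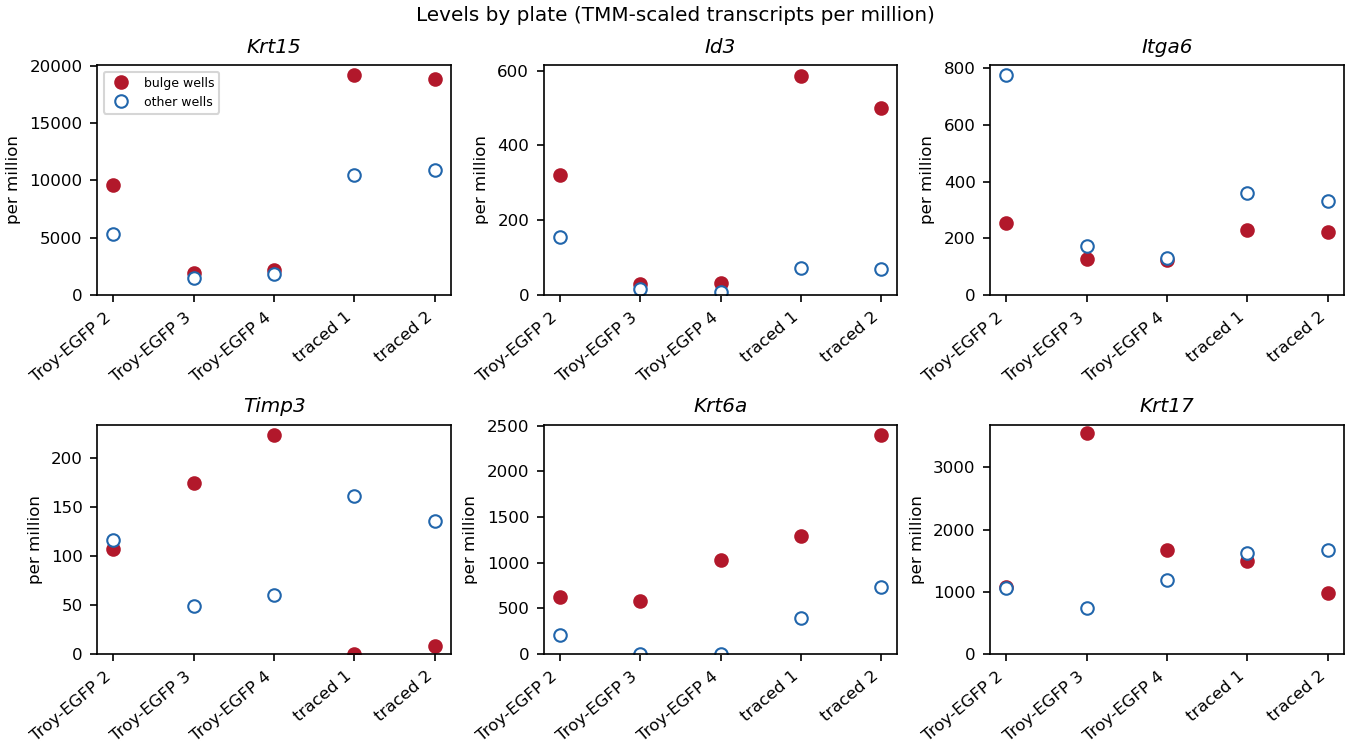
*Krt15*, *Id3*, *Itga6*, *Timp3*, *Krt6a* and *Krt17* in each plate, in transcripts per 1000000 on linear axes, for bulge (filled) and other epidermal wells (open). *Krt15* is 1901 and 2195 in bulge wells of *Troy*-EGFP replicates 3 and 4 but 9549 to 19171 in the remaining plates, and *Timp3* is 0 and 7.69 in bulge wells of the traced plates.

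The signal genes of the WNT, BMP and FGF pathways that could be tested were also higher. Of 11 listed genes, 7 were tested and 7 rose (13.3% of all genes rose), with a median log2 difference of 4.13. *Grem1*, *Fgf18* and *Dkk3* entered the test through the bulge sums, so this count and median are no support for the list. *Grem1*, a secreted antagonist that opposes BMP signals, stood at 107, 204, 111, 85.6 and 169 against 1.46 to 8.32, 4.89 ± 0.42 apart. *Fgf18*, a growth factor that keeps HFs in telogen, stood at 282, 145, 124, 85.6 and 108 against 0 to 10.7, 4.68 ± 0.44 apart. *Id1*, *Id2* and *Id3*, helix-loop-helix inhibitors that are targets of BMP signaling, rose by 1.86, 3.02 and 2.26. *Id2* was the most even of them, at 506, 708, 723, 592 and 746 against 56.5 to 101.

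The ligands *Bmp2*, *Bmp6* and *Inhbb* and the WNT inhibitor *Wif1* had too few transcripts for the test. *Wif1* had 54 transcripts in the bulge sums and 4 in the others. *Bmp6* had 1 and 2. *Bmp2* was seen in 6.30% of bulge and 6.61% of other epidermal wells, and *Inhbb* in 6.30 and 6.46%. These shares were taken without cutting the wells to equal depth. By level, *Bmp2* was higher in the bulge in 2 of 5 plates and lower in 3, and *Inhbb* was higher in 4 and lower in 1. Whether ligand levels differed was not detectable for *Bmp6* at this depth.

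Matrix and secreted genes rose in 7 of the 8 tested of 14 listed (13.3% of all genes rose), and *Ctgf* and *Aspn* entered the test through the bulge sums. In the traced plates alone, a setting chosen after seeing the data, 8 of 12 rose and 1 fell. Among listed genes not tested, *Efemp1* was seen in 2.10% of bulge and 11.1% of other epidermal wells, and *Tnc* in 10.5 and 0.751%. *Ptn*, a heparin-binding growth factor, stood at 369.9, 756, 458, 526 and 308 against 0 to 55.2, 4.01 ± 0.32 apart. *Sparc*, a collagen-binding matricellular protein, stood at 711, 329.7, 377, 849 and 1292 against 15.6 to 154, 3.79 ± 0.24 apart. *Aspn*, a small leucine-rich proteoglycan, rose by 4.60, *Col18a1* of the basement membrane by 2.97, *Npnt*, the nephronectin that anchors the arrector pili muscle at the bulge, by 2.29 and *Cyr61* by 1.29. *Col1a1* and *Col1a2*, the fibroblast genes seen in bulge wells, also had higher summed levels there, and their part in these results was not tested.

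*Timp3*, an inhibitor of metalloproteases (chromosome 10, 86300412 to 86349505), was the 1 tested matrix gene that did not pass. Its bulge levels were 107, 175, 223, 0 and 7.69 and those of the other wells 116, 48.7, 60.4, 161 and 135 (log2 difference -0.09 ± 0.51, adjusted p = 0.931). It was higher in the bulge in *Troy*-EGFP replicates 3 and 4 and lower in both traced plates.

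Genes of adhesion to the basement membrane split. Of 11 tested, 8 rose and 1 fell (13.3% and 11.5% of all genes), with a median log2 difference of 0.69. In the *Troy*-EGFP plates alone 5 of 10 rose (10.4% of all genes tested there), in the traced plates alone, a setting chosen after seeing the data, 4 of 11 (7.2%), and without the plate as a block 2 of 11 (7.03%). *Col17a1*, the hemidesmosomal collagen, stood at 1869, 3123, 3933, 2442 and 2447 against 1373, 1960.5, 1512, 1128 and 1110.4, 0.96 ± 0.11 apart (adjusted p = 6.32e-08). *Lamb3*, a chain of laminin 332, rose by 1.36. *Itga6*, the antigen of the sort, stood at 253, 126.1, 124, 230.3 and 223 against 778, 173, 129, 361 and 329.8, -0.72 ± 0.20 (adjusted p = 0.00791). Without *Troy*-EGFP replicate 2, *Itga6* lost its call. Of the 8 rises, those of *Itgb4*, *Lama3* and *Itgb1* were lost under leaving out single plates: *Itgb4* without any of *Troy*-EGFP replicates 3 and 4 and traced replicates 1 and 2, *Lama3* without *Troy*-EGFP replicate 2 or 4 or traced replicate 1, and *Itgb1* without *Troy*-EGFP replicate 4 or either traced plate.

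Of the basal keratins *Krt14* was lower in the bulge. It fell by 1.04 ± 0.10 on the log2 scale, from 4510.3 ± 838 in other wells to 2205 ± 549 in the bulge, without overlap. *Krt5*, its partner, was 13906 ± 2690.3 against 12294 ± 1919 (0.17 ± 0.06, adjusted p = 0.0495), and this call held under 3 of 18 alternatives and changed sign with no filter on low counts (-0.060). *Ly6a*, which encodes SCA-1 of the IFE and INF, fell by 2.80. *Trp63*, the epithelial master factor, was 284 ± 189 against 296 ± 181.

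Of 7 listed genes of the committed epidermis 4 were tested, and 3 fell and 1 rose (11.5% and 13.3% of all genes). *Krtdap*, a secreted keratinocyte protein, stood at 253, 252, 98.9, 257 and 15.4 in bulge wells against 1510.2, 2368, 2097, 1649 and 1474, -3.46 ± 0.23 (adjusted p = 8.53e-13). *Dsg1a*, a desmosomal cadherin, fell by 3.51, and *Mt4* is among the falls above. *Sbsn*, suprabasin, was higher in the bulge by 0.72, a call lost without traced replicate 1. Of the 3 upper follicle genes tested 2 fell, *Gata6* by 1.55 and *Plet1* by 1.30, and *Gata6* lost its call without traced replicate 2. Without the plate as a block *Sbsn*, *Gata6* and *Plet1* all lost their calls. The rule kept wells rich in *Krt1*, *Krt10* or *Krt79* out of the bulge, so these falls are not independent of it.

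Proliferation genes were lower in the bulge in 5 of 8 tested of 20 listed (11.5% of all genes were lower), and none rose. In the *Troy*-EGFP plates alone 2 of 6 fell (9.08% of all genes tested there), with a median log2 difference of -0.59. In the traced plates alone 12 of 15 fell (7.41%), with a median of -1.58, and without the plate as a block 2 of 8 (4.16%). *Stmn1*, a microtubule regulator of dividing cells, stood at 136, 155, 92.8, 138 and 92.3 against 354, 224, 351, 400.2 and 269.9, -1.40 ± 0.21 (adjusted p = 4.56e-06). *Mcm6*, a subunit of the replicative helicase, fell by 1.51, *Hmgb2* by 1.13, *Pcna* by 0.84 and *H2afz* by 0.71. The groups of *Stmn1* and *Hmgb2* did not overlap, while those of *Mcm6* and *Pcna* did. *Pcna* was not called without traced replicate 1. *Mki67* was not tested, at 17 transcripts in bulge sums against 217.

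Single immediate early genes, which respond within minutes to growth factors and to tissue handling, moved in both directions. Of 11 tested of 14 listed, 2 rose and 5 fell, where 13.3% and 11.5% of all genes did. The rises were thus near the background. Without the plate as a block none rose and 2 fell (7.03% and 4.16% of all genes). *Fos* stood at 0, 0, 6.18, 158 and 30.8 in bulge wells against 191, 111, 141, 467 and 173, -2.58 ± 0.36 (adjusted p = 1.35e-06). *Egr2* fell by 2.75 and *Junb* by 1.54, both without overlap, whereas *Ier3* rose by 1.83 and *Jun* by 0.58. *Jun* lost its call without *Troy*-EGFP replicate 4 or traced replicate 2.

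Few bulge wells had transcripts of *Troy* itself. *Tnfrsf19* (chromosome 14, 60963834 to 61046855) had 5 transcripts in 4 of the 238 bulge wells and 117 transcripts in the other sums, too few for the test. In bulge wells it stood at 19.5, 9.7, 12.4, 0 and 0 and in the others at 62.4, 70.2, 90.6, 7.3 and 10.7, lower in the bulge in 5 of 5 plates. The bulge and other ranges overlapped between plates, since the traced plates were low in both classes. The traced mice were homozygous for the cassette that replaces *Troy*; the zygosity of the *Troy*-EGFP mice is not given in the sources used here. A row for EGFP in the tables of *Troy*-EGFP replicates 3 and 4 held 0 and 1 transcripts in bulge wells and none in basal wells, so it does not separate the groups.

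The next question was which kind of epidermal cell each bulge gene separates the bulge from. The bulge sums were set against basal, *Krt1*/*Krt10* and upper follicle sums in 1 fit over 3013 genes, so the 3 contrasts share the bulge sums. Against basal wells 679 genes passed (22.5%; 11.4% higher and 11.2% lower), against *Krt1*/*Krt10* wells 953 (31.6%; 15.7% and 15.9%) and against upper follicle wells 773 (25.7%; 12.7% and 13%). Of the WNT, BMP and FGF signal genes, 7 of 7 tested rose in each contrast. Some of them entered the test through the bulge sums, so this count is no support for the list. *Ctgf* differed by 4.97, 8.19 and 7.63 from the 3 classes, *Dkk3* by 4.68, 5.78 and 7.04 and *Sfrp1* by 3.83, 4.28 and 5.81.

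Which class lay nearest to the bulge in HF transcription factors differed by gene. *Sox9* ran from 1009 to 2117 in bulge sums, 512 to 938 in upper follicle sums, 99.9 to 382 in basal sums and 42.5 to 116 in *Krt1*/*Krt10* sums. It was thus 1.17 ± 0.21 above upper follicle and 2.70 ± 0.21 above basal wells on the log2 scale. *Foxc1* was lower in the bulge than in upper follicle wells (-0.89 ± 0.25, adjusted p = 0.00686; medians of 426 and 725), though higher than in basal wells (1.92 ± 0.27). *Nfib* had medians of 2028 in bulge, 735 in basal and 427 in upper follicle wells, and was 1.32 ± 0.16 above basal and 2.10 ± 0.18 above upper follicle wells. *Cd200*, the surface protein, had medians of 346 and 254 in bulge and upper follicle wells and did not pass (0.20 ± 0.31, adjusted p = 0.713). The call on *Foxc1* against the upper follicle was lost with DESeq2.

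The place of the bulge among the classes differed by keratin. *Krt17*, a keratin of the follicle, was 2.34 ± 0.32 above basal and 3.48 ± 0.37 above *Krt1*/*Krt10* wells but -2.02 ± 0.29 against upper follicle wells, with class medians of 1469, 356, 146 and 7204. *Krt14* differed by -1.68 ± 0.17 from basal wells and by 1.32 ± 0.18 from *Krt1*/*Krt10* wells. *Krt15* did not pass against basal wells (0.40 ± 0.19, adjusted p = 0.138) and rose against the remaining classes by 1.03 and 1.36, with its highest class median, 9752, in the bulge. *Sbsn* and *Krtdap*, genes of the committed epidermis, were higher in the bulge than in basal wells by 2.63 and 0.95; *Krtdap* was lower than in *Krt1*/*Krt10* and upper follicle wells.

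Proliferation genes separated the bulge from basal wells in 6 of 6 tested (11.2% of all genes were lower), with a median log2 difference of -1.28. *Stmn1* ran from 90.8 to 152 in bulge sums and from 333 to 569.7 in basal sums (-1.86 ± 0.29, adjusted p = 3.68e-06), and *Mcm6* differed by -2.001 ± 0.44. *Hmgb2* (-1.37), *Pcna* (-1.18), *H2afz* (-1.02) and *Tubb5* (-0.83) were also lower. None of the 6 passed against *Krt1*/*Krt10* or upper follicle wells, where *Stmn1* differed by -0.14 ± 0.35 and -0.77 ± 0.36. Whether the contrasts differ from each other was not tested.

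Of the adhesion genes, all 10 tested were higher in the bulge than in upper follicle wells, 8 of 10 were higher than in *Krt1*/*Krt10* wells, and 3 were higher and 1 lower than in basal wells. Of all genes, 12.7, 15.7 and 11.4% were higher in these contrasts, and 11.2% were lower than in basal wells. Whether these contrasts differ was not tested. *Col17a1* was 0.47 ± 0.15, 1.79 ± 0.16 and 2.90 ± 0.19 above basal, *Krt1*/*Krt10* and upper follicle wells. *Itga6* differed by -1.28 ± 0.20 from basal wells (adjusted p = 3.57e-06), with medians of 219.5 and 450.2, and by 1.17 ± 0.29 from upper follicle wells. *Sparc* had no transcript in any upper follicle sum, while it ran from 322 to 1272 in the bulge.

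Of 11 immediate early genes tested, 1 was higher and 2 lower than in basal wells, 3 were higher and 3 lower than in *Krt1*/*Krt10* wells, and 6 were lower and none higher than in upper follicle wells. The counts against basal wells are near the shares of all genes (11.4% higher and 11.2% lower). Of all genes, 15.7% were higher and 15.9% lower than in *Krt1*/*Krt10* wells, and 13% were lower than in upper follicle wells. Differences between these contrasts were not tested. *Egr2* was -5.19 ± 0.44 against upper follicle wells (adjusted p = 8.05e-12) but -1.12 ± 0.58 against basal wells, which did not pass (adjusted p = 0.176). *Fos* was lower than in each class, with log2 differences of -2.65, -2.59 and -1.66 from basal, *Krt1*/*Krt10* and upper follicle wells. The last of these was lost without *Troy*-EGFP replicate 2 or 4.

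**Figure D4:**
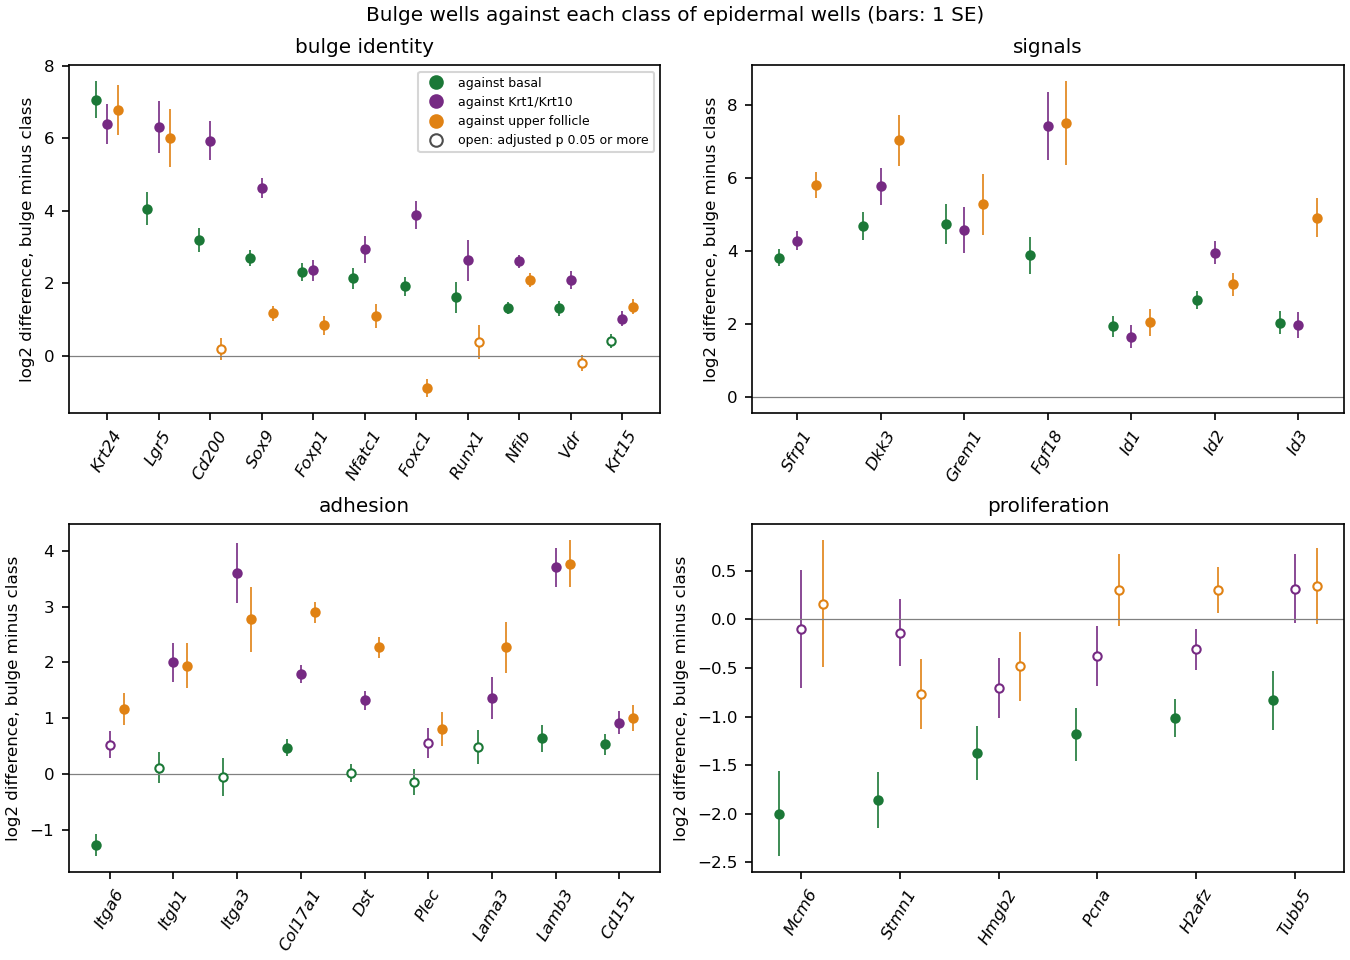
Log2 difference of bulge wells from basal, *Krt1*/*Krt10* and upper follicle wells for genes of bulge identity, signals, adhesion and proliferation, with bars of 1 SE (5 plates) and open symbols where the adjusted p did not pass. Proliferation genes have filled symbols below 0 against basal wells and open symbols against the other classes; *Sfrp1* lies at 3.83, 4.28 and 5.81.

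Bulge wells also varied among themselves. *Krt5* was seen in all 238 wells, *Nfib* in 223 and *Sox9* in 208. The secreted genes *Sfrp1*, *Ctgf* and *Dkk3* were seen in 145, 138 and 134 wells and the receptor gene *Lgr5* in 62. The last 4 genes reached 3 or more transcripts in 91, 73, 41 and 13 wells, so counting error widens this spread.

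*Krt6a*, a keratin of the inner bulge layer, was seen in 121 wells, and the 24 wells with most of it held 60.7% of its transcripts. *Krt17* was seen in 104 wells with 73.4% in the top 24, *Fgf18* in 40 wells with 83% and *Aspn* in 59 wells with 73.8%. Genes seen in about as many wells as *Krt6a* had shares of 50.6% for *Angptl7* (121 wells), 51.2% for *Sparc* (122 wells) and 51.8% for *Ctgf* (138 wells), and *Krt5*, seen in every well, had 22.3%. Such shares grow as a gene gets rarer and were not tested, nor was it tested whether the same wells carry these genes.

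By plate *Krt6a* stood at 623, 582, 1026, 1289.9 and 2393 in bulge wells and at 212, 1.95, 5.03, 394 and 732 in the others, 2.77 ± 0.41 apart (adjusted p = 3.78e-06). It was higher in the bulge in 5 of 5 plates. The gap was widest in *Troy*-EGFP replicates 3 and 4, where the other wells had almost none. *Krt17* stood at 1071, 3549.5, 1676, 1494 and 977 against 1069, 746, 1188, 1623 and 1675 and did not pass (0.37 ± 0.22, adjusted p = 0.26). *Krt75*, which also marks the inner layer, had 10 transcripts in the bulge sums. The hair germ genes *Sostdc1* and *Cdh3* did not pass either, at 388 ± 154 against 315 ± 77.8 and 90.8 ± 40.4 against 106 ± 45.7.

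The third comparison set bulge wells of the traced mice against those of the *Troy*-EGFP mice. Genotype, tamoxifen and plate preparation differ between these mice and cannot be told apart. Sex may differ as well, since the study used only males for the tracing and mice of both sexes otherwise. Among the plates, the older annotation is found only in *Troy*-EGFP replicates 3 and 4. Of 2662 genes, 53 passed (1.99%), 18 higher in the traced plates (0.676%) and 35 lower (1.31%). No tested gene of the bulge identity (12), WNT, BMP and FGF signal (8) or adhesion (11) lists was among them, which at 1.99% of all genes is near the background and no result about these lists. Without *Troy*-EGFP replicate 2 the count was 541, without replicate 3 it was 14, and without replicate 4 it was 0, with 279 genes at an unadjusted p under 0.05. Without traced replicate 1 or 2 it was 10 or 17. In the other epidermal wells 65 of 7702 genes passed (0.844%), 27 higher (0.351%) and 38 lower (0.493%); both comparisons rest on the same mice.

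*Tubb4b*, a beta tubulin, stood at 38.9, 19.4 and 18.6 in bulge wells of the *Troy*-EGFP plates and at 355 and 331 in those of the traced plates (log2 difference 3.70 ± 0.46, adjusted p = 0.00629). In the other epidermal wells it stood at 58.7 to 125 in *Troy*-EGFP plates and at 720.04 and 471 in traced plates. *Susd2*, *Prdx5* (a peroxiredoxin), *Fxyd3* and *Atox1* (a copper chaperone) were higher by 3.69, 3.22, 3.20 and 3.11. *2900060B14Rik*, at 331, 456 and 761 against 6.58 and 7.69, and *D630045M09Rik*, at 195, 136 and 229 against 6.58 and 0, differed by -6.04 and -5.43 on the log2 scale. *Psg28* stood at 97 to 117 in *Troy*-EGFP plates and at 0 in both traced plates, and *Snora81* had no row in the tables of the traced plates. In the other epidermal wells the mean levels of the 8 genes with a row in every table differed in the same direction. In the plates of newer gene names alone, with the 7 bulge wells of *Troy*-EGFP replicate 1 included, 8 of the named genes were tested and 7 passed (6.42% of all genes tested there), *Atox1* being the one that did not.

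*Timp3* was an exception. Its bulge level was 107, 175 and 223 in the *Troy*-EGFP plates and 0 and 7.69 in the traced plates, a log2 difference of -5.27 ± 0.86 (adjusted p = 0.0167), while the other epidermal wells ran from 48.7 to 116 and then 161 and 135. The call was lost without *Troy*-EGFP replicate 3 or 4 or traced replicate 1. The difference itself was tested by an interaction term, which 11 of 5309 genes passed (0.207%), 2 higher (0.0377%) and 9 lower (0.17%) in the bulge. *Timp3* differed between bulge and other wells by -6.54 ± 0.88 (adjusted p = 3.08e-07) and was called under 7 of 8 alternatives, DESeq2 being the one that did not call it.

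The bulk libraries, which the rule did not use, asked where bulge genes fall between ITGA6bright EGFP– and EGFP+ cells. In bulk, fewer cells of a type and less RNA per cell cannot be told apart. Of 4606 genes, 321 passed (6.97%), 184 higher (3.99%) and 137 lower (2.97%) in EGFP– cells. Of the 462 genes that were higher in bulge wells, 356 were tested, 48 were higher and 11 lower in EGFP– cells, and their median log2 difference was 0.21. Of the 400 that were lower in bulge wells, 380 were tested, 20 were higher and 49 lower, with a median of -0.22. The median of all genes was 0.04.

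Of the 9 bulge identity genes tested in bulk, *Foxc1*, *Nfatc1*, *Sox9* and *Cd200* were higher in EGFP– cells, and *Krt15*, *Foxp1*, *Nfib*, *Vdr* and *Runx1* did not pass. With the mouse as a block in the edgeR fit *Vdr* passed as well (adjusted p = 0.0235 instead of 0.0556). *Lhx2*, a gene of the rule, stood at 208.8 and 206.8 counts per 1000000 (CPM) in EGFP– and at 19.9 and 29.5 in EGFP+ cells, 3.11 ± 0.44 apart on the log2 scale (adjusted p = 1.46e-04), and at 387 and 248 in viable cells. *Foxc1* stood at 514 and 602 against 34.2 and 24.6 (4.18 ± 0.36, adjusted p = 1.50e-06), *Nfatc1* at 136 and 276 against 31.3 and 54.1 (2.37 ± 0.44, adjusted p = 0.00202). *Sox9* stood at 1919 and 3909.6 against 660.4 and 866 (1.94 ± 0.36, adjusted p = 0.00178), a call lost without EGFP+ replicate 1.

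*Krt6a*, *Ptn* and *Cd200* followed. *Krt6a* was 1.90 ± 0.42 higher in EGFP– cells (adjusted p = 0.00785) and lost its call without EGFP+ replicate 1, and *Ptn* was 1.80 ± 0.33 higher (adjusted p = 0.0018). *Cd200* was 2.73 ± 0.69 higher (adjusted p = 0.0218), but DESeq2 did not call it (adjusted p = 0.226), nor did the fits without EGFP+ replicate 1, EGFP– replicate 2 or viable replicate 2.

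Of 6 matrix and secreted genes tested only *Ptn* passed, and of 5 WNT, BMP and FGF signal genes *Bmp2* was lower in EGFP– cells and the others did not pass. DESeq2 did not call *Bmp2* (adjusted p = 0.228), and 1 of the 6 fits that left out a library lost it. *Postn* stood at 136 and 157 in EGFP– and 99.6 and 83.7 in EGFP+ cells (0.66 ± 0.36, adjusted p = 0.328). *Sfrp1* stood at 136 and 119 against 179 and 197, with 471 and 469 in viable cells (-0.56 ± 0.33, adjusted p = 0.391). *Sparc* differed by -1.43 on the log2 scale, without a call (edgeR adjusted p = 0.0747). It was called with the mouse as a block (0.0249) and in 2 of the 6 fits that left out a library. *Cd34*, *Angptl7*, *Krt24*, *Lgr5*, *Dkk3*, *Grem1*, *Ctgf* and *Col8a2* had too few counts for the test. Of 11 adhesion genes 5 were lower in EGFP– cells and none higher. They included *Itga6* (-1.51 on the log2 scale), which was also lower in bulge wells.

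Other cells moved with the EGFP– population. Of the 7 upper follicle genes tested 6 were higher there, *Krt79* at 4144 and 1798 against 305 and 359, *Gata6* by 3.14 and *Plet1* by 3.42. The immune genes *Ptprc*, *H2-Ab1* and *Cd74* were higher by 5.72, 4.22 and 3.72, and the sebocyte genes *Plin2* and *Mgst1* by 1.93 and 2.38. Of 16 proliferation genes tested 4 were higher in EGFP– cells (*Birc5*, *Top2a*, *Cdk1* and *Stmn1*) and none lower. *Stmn1*, which was lower in bulge wells, was 1.18 higher here (adjusted p = 0.0351). DESeq2 called *Top2a* and *Plin2* but not *Birc5*, *Cdk1*, *Stmn1* or *Mgst1*. *Egr2*, which was low in bulge and high in upper follicle wells, was 2.69 higher in EGFP– cells. The part of these cells in the bulk levels of *Sox9*, *Foxc1* and *Cd200*, which upper follicle wells also express, was not tested.

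*Fos* stood at 80.3 and 144 CPM in EGFP– and 789 and 861 in EGFP+ cells (-2.84 ± 0.34, adjusted p = 3.19e-05). *Tnfrsf19* stood at 24.1 and 37.6 against 117 and 78.7 (-1.66 ± 0.48, adjusted p = 0.0428; DESeq2 0.342). Both were low in bulge wells as well. Of the 12 largest falls in bulge wells 11 were tested in bulk, and 7 of them were lower in EGFP– cells, *Il33*, *Mt4* and *Il1r2* among them. *Il1r2* was called in each of the 6 fits that left out a library, *Il33* and *Skint9* in 4 and *Mt4* in 2. DESeq2 did not call *Il33* (adjusted p = 0.253), *Skint9* (0.149) or *Mt4* (0.312).

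**Figure D5:**
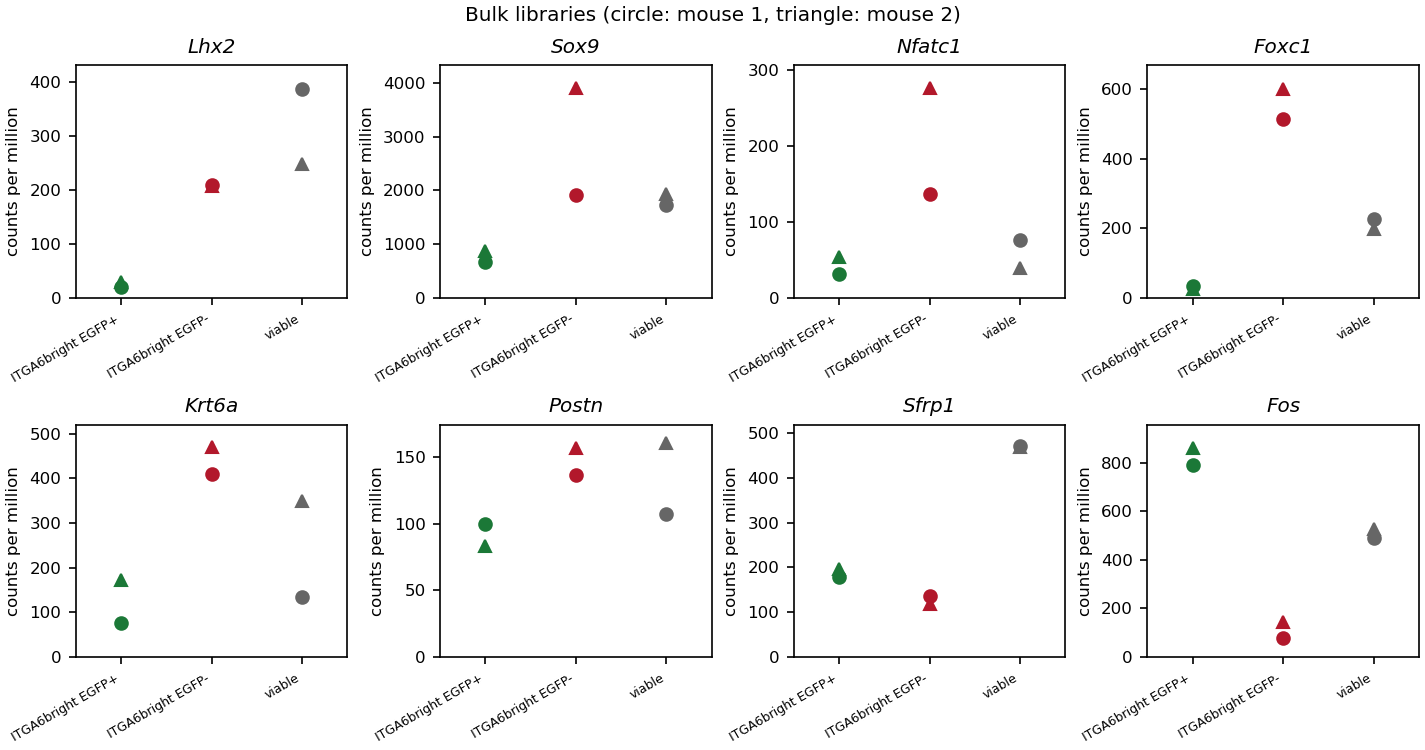
CPM of *Lhx2*, *Sox9*, *Nfatc1*, *Foxc1*, *Krt6a*, *Postn*, *Sfrp1* and *Fos* in the 6 bulk libraries, with a circle for mouse 1 and a triangle for mouse 2 in viable, EGFP+ and EGFP– cells. *Lhx2* is 208.8 and 206.8 in EGFP– cells against 19.9 and 29.5 in EGFP+ cells, while *Sfrp1* is highest in viable cells at 471 and 469.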

How the data were processed

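For the 6 single-cell plates the authors mapped reads to mm10 with BWA 0.6.2-r126 and deposited expected counts: molecular barcodes of a gene in a well, converted to an estimate of transcripts. Each value equals a whole number of barcodes of 6 bases (tolerance 1e-06). The labels give a barcode of 4 bases, and this conflict was not resolved; it bears on how the largest counts are corrected. The bulk tables hold unnormalized read counts as the authors deposited them. Library totals were 133072 to 396380 counts, and plates held 236806 to 1064650 transcripts.

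Wells with at least 1000 transcripts and under 10% *Kcnq1ot1* were kept (1009 of 2304). A bulge well had under 0.5% *Krt1*+*Krt10*, under 0.4% *Cst6*+*Defb6*+*Krt79*, under 4 T cell and under 10 MHC class II transcripts. All 384 cell barcodes are shared by the plates by design. Transcripts were rounded after summing per plate and class (at least 10 wells) and tested in R 4.3.3 with the quasi-likelihood test of edgeR 4.0.16, with the plate as a block, TMM scaling, the filterByExpr filter and a Benjamini-Hochberg threshold of 0.05. The rule genes stayed in library sizes and out of the tests. The code was tested on simulated data. Bulk populations were fitted without a block. Their same-numbered libraries come from the same mouse, and the deviations of EGFP– and EGFP+ replicate 1 correlated at 0.0631.

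Members and gene lists were chosen with earlier results of these data known. Named were all listed genes, the 12 largest called rises and falls that moved alike in every plate with at least 30 transcripts, and the 5 largest called differences each way between the experiments. Older gene symbols (up to 259 per table) were joined to current RefSeq symbols (GRCm38.p6), a choice made after seeing the data. *Snora81* is the 1 gene called between traced and *Troy*-EGFP bulge wells without a row in every table. Among the genes called in bulge against other wells, 3 had no row in 1 table or more. Alternatives included DESeq2 1.42.0, other filters and leaving out each plate.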

Additional observations from a re-analysis of the deposited data

Results flagged for a closer look

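The difference between traced and *Troy*-EGFP plates was itself different in bulge and other epidermal wells for 11 of 5309 genes (0.207%), 9 lower and 2 higher in the bulge, by the interaction term of the edgeR fit. DESeq2 called 0 of them, with 125 genes at an unadjusted p under 0.05. Values below are differences of log2 differences. None was called under every alternative, and the cause of none was tested.

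*Timp3* differed by -6.54 and *S100a6* by -1.16, each called under 7 of 8 alternatives. *S100a6* stood at 3680 to 8020 in bulge wells of all plates, and at 499 to 837 in the other wells of *Troy*-EGFP plates against 1742 and 1859 in those of traced plates. *Rn45s*, the ribosomal RNA precursor, differed by -0.69. It stood at 16149, 46250.5 and 79223 transcripts per 1000000 in the *Troy*-EGFP bulge sums and at 6594 and 8609 in the traced ones, and was highest in the plates of the older gene names.

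*Krt6a* differed by -2.50 and *Krt17* by -1.38. For *Krt6a* the other wells of *Troy*-EGFP replicates 3 and 4 had levels of 1.95 and 5.03 against 212 to 732 elsewhere, and the call was lost without either replicate. *Shisa2* differed by -3.64, with bulge levels of 399, 621 and 420.5 in *Troy*-EGFP and 362 and 215 in traced plates. *Rpa2*, a replication protein, differed by -3.44, with bulge levels of 146, 87.3 and 98.9 against 26.3 and 23.1 while the other wells stood at 17.5 to 40.3 and then 81.8 and 62.9.

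*Klk7*, a kallikrein of the cornified layer, has a fitted value of -7.79 that depends on the prior count and is no bound, since both traced bulge sums are at 0 against 18.6 to 19.5 in the *Troy*-EGFP plates. *Ly6d* differed by -1.08, *Ucp2* by 1.26 and *Abca1* by 1.61, called under 3, 2 and 1 of 8 alternatives. In the 4 *Troy*-EGFP plates no plate stood apart by Dixon's test in the share of bulge wells, their median transcripts, the log2 depth ratio or the *Kcnq1ot1* percentage.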

How the results depend on the processing

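The count of genes called between bulge and other epidermal wells (862) became 390 without the plate as a replicate block, 1596 with no filter on low counts and 329 of 986 tested with wells thinned to 1000 transcripts. It ranged from 676 to 1076 when 1 plate was left out. Without the block and without the filter, counts were 308 and 1088 against basal wells (531 to 685 with 1 plate left out) and 552 and 1494 against *Krt1*/*Krt10* wells (802 to 1020). Against upper follicle wells the count without the block was 473 (638 to 801). The plate pairs the sums, and without the block 26 of 77 named genes lost their call against other wells. Of the 77, 49 were called under every alternative tested, and *Krt5* alone changed sign, to -0.060 with no filter. Traced against *Troy*-EGFP bulge wells gave 85 calls with DESeq2, 184 with no filter, 150 in the plates of newer gene names alone (added after seeing the data) and 0 to 541 with 1 plate left out. The difference of differences gave 0 with DESeq2 and 5 to 29, without *Troy*-EGFP replicates 3 and 2. The bulk comparison gave 140 with DESeq2, 187 with the ITGA6bright populations alone, and 141 without EGFP+ replicate 1 to 725 without EGFP– replicate 2. With the mouse as a replicate block it gave 460 instead of 321, adding *Sparc*, *Dsg1a*, *Vdr*, *Sostdc1*, *Col3a1*, *Sprr1a* and *Ly6g6c* to the named calls and losing none. The share difference was -4.00 points with wells of at least 2000 transcripts and ranged from -9.96 to -5.66 points and the log2 depth ratio from -0.543 to -0.429 with 1 plate left out. Genes of few transcripts per plate limit every list.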
